A study of Mus musculus with 7 samples.

Results

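The peaks of retinoic acid receptor β (RARβ) and of retinoid X receptor α (RXRα) were compared in livers of mice on the control diet. The deposited peak lists of both receptors, 14968 peaks for RARβ and 61128 for RXRα, made up 76096 of the 245004 peaks of the series. Peaks with at least 1 bp in common with the other list were taken as shared, and all others as specific. This gave 2961 RARβ-specific peaks, 12007 RARβ peaks shared with RXRα, 12032 RXRα peaks shared with RARβ and 49096 RXRα-specific peaks. The RXRα list was also cut to its 14968 highest-scoring peaks, so that both lists had equal length. The cut fell at a score of 283.94, which 2 RXRα peaks had.

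Retinoic acid receptors are transcription factors that bind DNA as heterodimers with a retinoid X receptor. RXRα is the common partner of many other nuclear receptors of the liver, among them the receptors of fatty acids (PPARα), oxysterols (LXR), bile acids (FXR) and drugs (PXR and CAR). The heterodimers recognize pairs of the hexamer AGGTCA or its variants, whose orientation and spacing differ between partners. RARβ and RXRα peaks were thus compared to see where the RAR shares sites with the common partner and where each was found without the other.

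Chromatin immunoprecipitation and sequencing (ChIP-seq) was carried out on whole liver of male, wild type C57BL/6 mice of 3 months of age. The mice received a normal diet, which the labels give for 1 day, as the control of a diet with retinoic acid (RA). The study's methods give a longer time for the RA diet. There was 1 library per receptor, so no difference below has a replicate check, and no test was made between the receptors. The intervals are Wilson 95% intervals on shares of peaks or windows and cover counting error only. The score of a peak is the peak caller's own value, which increases as its p-value decreases. It was not normalized between libraries, and the read totals of both libraries were not analysed here. The RXRα list was the longer one and may come from a deeper or a more efficient library, which cannot be told apart from more binding sites. Whole liver holds several cell types, and the contribution of each to a peak cannot be told apart.

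The promoters under the highest-scoring peaks of each class are printed here as examples. They are the RefSeq windows of GRCm38.p6 (mm10) from 250 bases before to 50 bases after a transcription start, printed 5′ to 3′ on the strand of the gene. Capitals mark the CCAAT box on either strand (CCAAT, which reads ATTGG on the other strand), which is the site of the factor NF-Y, and 4 hexamers used by nuclear receptors, also on either strand, which are the consensus AGGTCA, its variant GGGTCA with another first base, and both again with T as the third base, as AGTTCA with the first and GGTTCA with the second. The RARβ-specific peaks are shown by Rfx1, a transcription factor (chr8:84066586-84066885, plus strand), and Prmt1, an arginine methyltransferase (chr7:44986371-44986670, minus strand).
Rfx1: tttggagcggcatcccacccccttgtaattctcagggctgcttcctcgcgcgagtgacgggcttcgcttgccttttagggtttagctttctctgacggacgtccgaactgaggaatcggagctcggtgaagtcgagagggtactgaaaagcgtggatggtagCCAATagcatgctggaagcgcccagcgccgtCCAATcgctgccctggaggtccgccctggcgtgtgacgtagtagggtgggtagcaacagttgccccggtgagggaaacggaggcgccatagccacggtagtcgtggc
Prmt1: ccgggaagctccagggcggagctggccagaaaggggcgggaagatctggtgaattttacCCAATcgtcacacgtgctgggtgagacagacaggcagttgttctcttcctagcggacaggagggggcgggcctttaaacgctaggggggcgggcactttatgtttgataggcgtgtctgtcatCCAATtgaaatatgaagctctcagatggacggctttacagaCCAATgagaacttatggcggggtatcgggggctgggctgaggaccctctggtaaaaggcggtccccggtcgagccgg
The shared peaks, ranked by their RARβ score, are shown by Atp5b, which encodes a subunit of the mitochondrial ATP synthase (chr10:128083057-128083356, plus strand), and Sp2, a transcription factor (chr11:96977639-96977938, minus strand). Their RXRα scores were 326 and 133.
Atp5b: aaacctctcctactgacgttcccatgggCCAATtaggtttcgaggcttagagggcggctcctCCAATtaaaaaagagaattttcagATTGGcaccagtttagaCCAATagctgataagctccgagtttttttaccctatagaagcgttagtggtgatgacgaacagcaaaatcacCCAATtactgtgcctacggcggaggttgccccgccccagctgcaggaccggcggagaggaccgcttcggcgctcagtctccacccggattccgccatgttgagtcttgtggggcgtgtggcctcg
Sp2: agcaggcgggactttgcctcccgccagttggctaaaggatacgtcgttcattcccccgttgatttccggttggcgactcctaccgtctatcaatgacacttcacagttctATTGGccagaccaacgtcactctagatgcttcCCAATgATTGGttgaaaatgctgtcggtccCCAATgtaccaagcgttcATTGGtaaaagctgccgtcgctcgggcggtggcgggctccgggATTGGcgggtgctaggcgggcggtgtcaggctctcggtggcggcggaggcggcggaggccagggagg
The RXRα-specific peaks are shown by Abcb11, the bile salt export pump (chr2:69342567-69342866, minus strand), and Akr1b7, an aldo-keto reductase (chr6:34412112-34412411, plus strand).
Abcb11: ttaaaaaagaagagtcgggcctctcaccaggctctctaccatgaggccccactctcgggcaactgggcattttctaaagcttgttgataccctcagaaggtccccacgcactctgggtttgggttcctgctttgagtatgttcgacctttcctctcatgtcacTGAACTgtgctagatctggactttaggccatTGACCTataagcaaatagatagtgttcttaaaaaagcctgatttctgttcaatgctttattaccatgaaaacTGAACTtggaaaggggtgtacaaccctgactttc
Akr1b7: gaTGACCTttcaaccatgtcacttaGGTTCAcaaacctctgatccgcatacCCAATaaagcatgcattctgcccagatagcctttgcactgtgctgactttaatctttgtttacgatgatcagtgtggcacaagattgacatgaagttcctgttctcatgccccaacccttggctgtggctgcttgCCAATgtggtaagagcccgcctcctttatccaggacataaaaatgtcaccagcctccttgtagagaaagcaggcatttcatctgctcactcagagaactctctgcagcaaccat
The windows of Rfx1, Prmt1, Atp5b and Sp2 held 2, 3, 5 and 6 CCAAT boxes and 0 of the 4 hexamers. The windows of Abcb11 and Akr1b7 held 3 and 2 of the hexamers, and 0 and 2 CCAAT boxes. The GC content was 60.3%, 57.7%, 53.7% and 59.7% in the first 4 windows, and 45.3% and 47.0% in the windows of Abcb11 and Akr1b7. Windows under peaks of lower score varied. That of the shared peak at Gm32584 had 30% GC, and that of the RXRα-specific peak at Aox1 held 0 hexamers and 2 CCAAT boxes. Over all promoters, of any base composition, the presence of a CCAAT box separated the classes far less. It was in 47.5% of the windows under RARβ-specific, 42.2% under shared and 35.3% under RXRα-specific peaks, against 38.2% of all windows. At equal length the shares were 44.3%, 38.1% and 42.2%. The hexamers by class, the CCAAT box by class within CpG-rich windows, and both motifs by score, are given below.

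Most RARβ peaks lay on an RXRα peak, while most RXRα peaks lay alone. Of the RARβ peaks, 80.2% (79.6% to 80.8%) overlapped an RXRα peak. Of the RXRα peaks, 19.7% (19.4% to 20%) overlapped a RARβ peak. Nearly all shared regions were simple pairs, since 11807 of the 12007 shared RARβ peaks met 1 RXRα peak. The midpoints of the 12210 pairs were a median of 84 bp apart, and 56.5% were within 100 bp. The RXRα peak was the wider one in 75% of the pairs. Shared peaks were also the wider ones within each list, with a median width of 523 bp for RARβ against 409 bp for RARβ-specific peaks, and of 716 bp for RXRα against 510 bp for RXRα-specific peaks.

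The overlap increased with the score in both lists. From the lowest to the highest decile of the RARβ list by score, the share on an RXRα peak went from 64.7% (62.3% to 67.1%) to 89.7% (88.1% to 91.1%). In the RXRα list the share on a RARβ peak went from 8.70% (8.02% to 9.44%) to 40.3% (39.1% to 41.6%). RARβ-specific peaks were thus mostly low-scoring: 571 of 2961 (19.3%) had a score of at least 100, against 35.1% of the shared RARβ peaks. Their median score was 63.1, against 80.3 for shared RARβ peaks. RXRα-specific peaks had a median score of 127, against 217 for shared RXRα peaks, and 29923 of them had a score of at least 100. The RXRα-specific class was thus not confined to low scores.

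**Figure D1:**
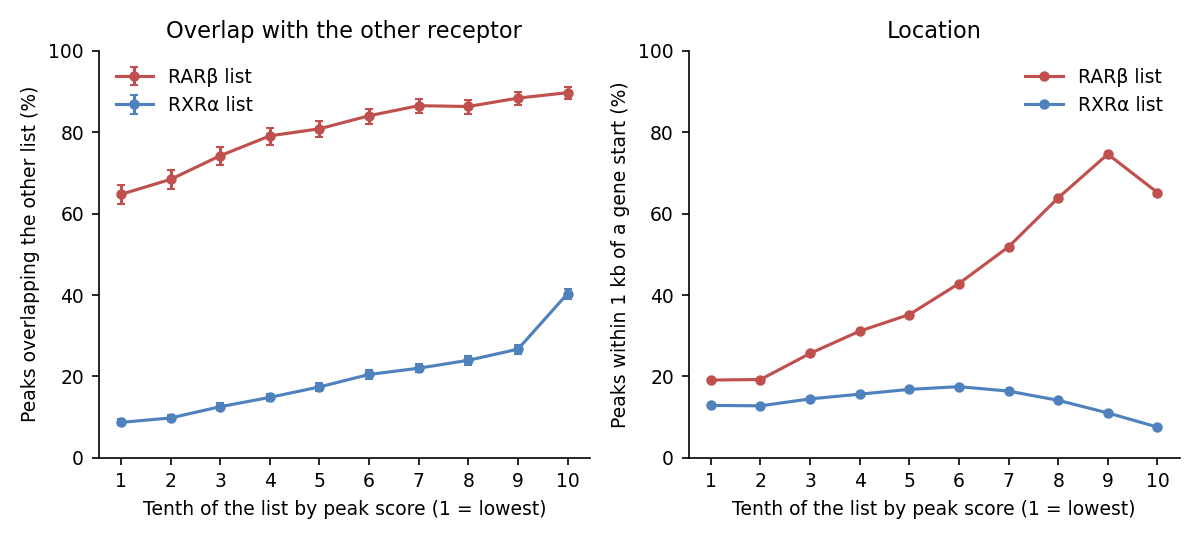
Left, the share of peaks (%) that overlap the list of the other receptor in each decile of the RARβ list (red) and the RXRα list (blue) by score, with Wilson 95% intervals. Right, the percentage of these peaks that lie near (within 1 kb of) a protein-coding gene start. The overlap increases with the score in both lists, while the share near starts goes from 19.1% to 65.2% along the RARβ list and from 12.9% to 7.56% along the RXRα list.

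The same scores went with opposite locations. In the lowest decile of the RARβ list 19.1% of the peaks lay within 1 kb of the start of a protein-coding gene, in the ninth decile 74.6% and in the highest 65.2%. In the RXRα list this share was 12.9% in the lowest decile, 17.5% in the sixth and 7.56% in the highest. High RARβ scores were therefore found mainly at promoters, and high RXRα scores mainly away from them: 73.2% of the highest RXRα decile lay beyond 10 kb from any protein-coding start, against 25.2% of the highest RARβ decile.

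By class, RARβ-specific and shared peaks were similar in location and RXRα-specific peaks stood apart. Within 1 kb of a start lay 38.1% (36.4% to 39.9%) of the RARβ-specific peaks, 44.0% (43.1% to 44.9%) of the shared RARβ peaks and 6.48% (6.27% to 6.70%) of the RXRα-specific peaks. The median distance to the nearest start was 7.39 kb, 3.42 kb and 27.7 kb. Within 0.25 kb of a start lay 30.7%, 35.9% and 3.26%. Beyond 50 kb lay 23.0% of the RARβ-specific, 17.8% of the shared RARβ and 35.1% of the RXRα-specific peaks.

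**Figure D2:**
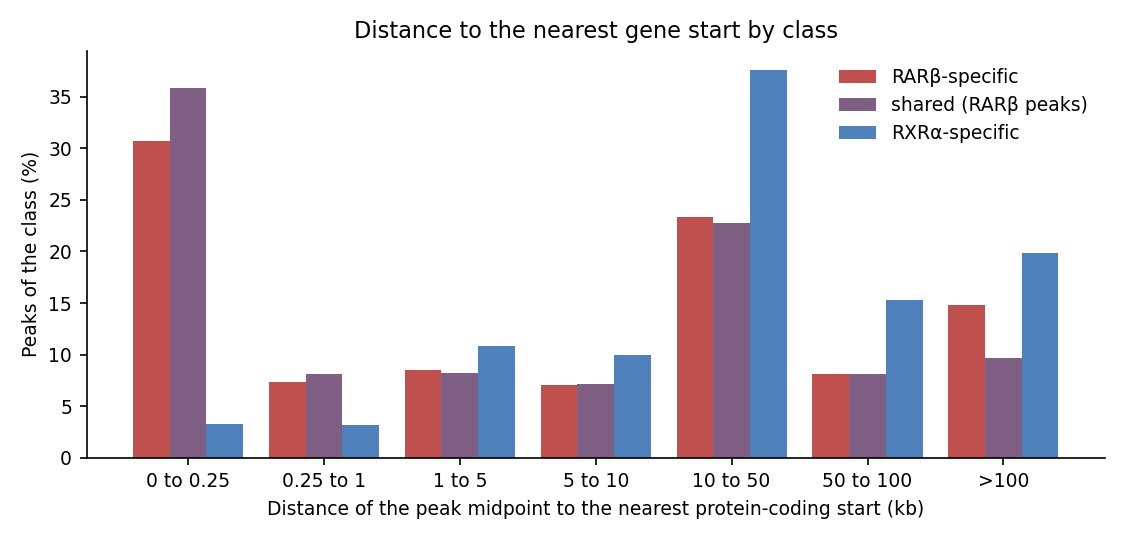
The share of the peaks of each class (%) by the distance of the peak midpoint to the nearest protein-coding start (kb), for RARβ-specific peaks (red), shared RARβ peaks (purple) and RXRα-specific peaks (blue). Within 0.25 kb lay 30.7%, 35.9% and 3.26%, and at 10 to 50 kb lay 23.3%, 22.7% and 37.6%.

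How much of a list was shared depended on location for RXRα and hardly for RARβ. Within 1 kb of a start 62.6% (61.6% to 63.6%) of the RXRα peaks overlapped a RARβ peak, while 15.3% did at 1 to 10 kb and 12.0% beyond 10 kb. For RARβ the corresponding shares were 82.4%, 80.1% and 78.0%. An RXRα peak at a promoter thus usually had a RARβ peak on it, and an RXRα peak elsewhere usually did not.

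At a shared region, the receptors ranked differently in their own lists. A percentile is used here, which is the share of a receptor's own list with a lower score, so that scores of different libraries need not be compared. For the 5425 pairs within 1 kb of a start, the median percentile was 70.9 for RARβ and 53.5 for RXRα, and RARβ had the higher percentile in 67.5% of them. For the 4909 pairs beyond 10 kb, the median percentile was 39.9 for RARβ and 82.7 for RXRα, and RARβ was the higher one in 19.1%. Distal shared regions were thus high in the RXRα list and low in the RARβ list, and promoter regions leaned the other way. Over all 12210 pairs Spearman's rho between the scores was -0.12, and it was 0.08 both within 1 kb and beyond 10 kb. These are descriptions across peaks of the same pair of libraries. Of the 1397 pairs in the highest decile of the RARβ list, 151 (10.8%) were also in the highest decile of the RXRα list. That decile held 2524 of all 12210 pairs, of which the 151 are 5.98%. Within 1 kb of a start the overlap was 51 of 902 (5.65%), where 341 of all 5425 pairs were in the highest RXRα decile. Beyond 10 kb it was 83 of 365 (22.7%), where 1736 of all 4909 pairs were.

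**Figure D3:**
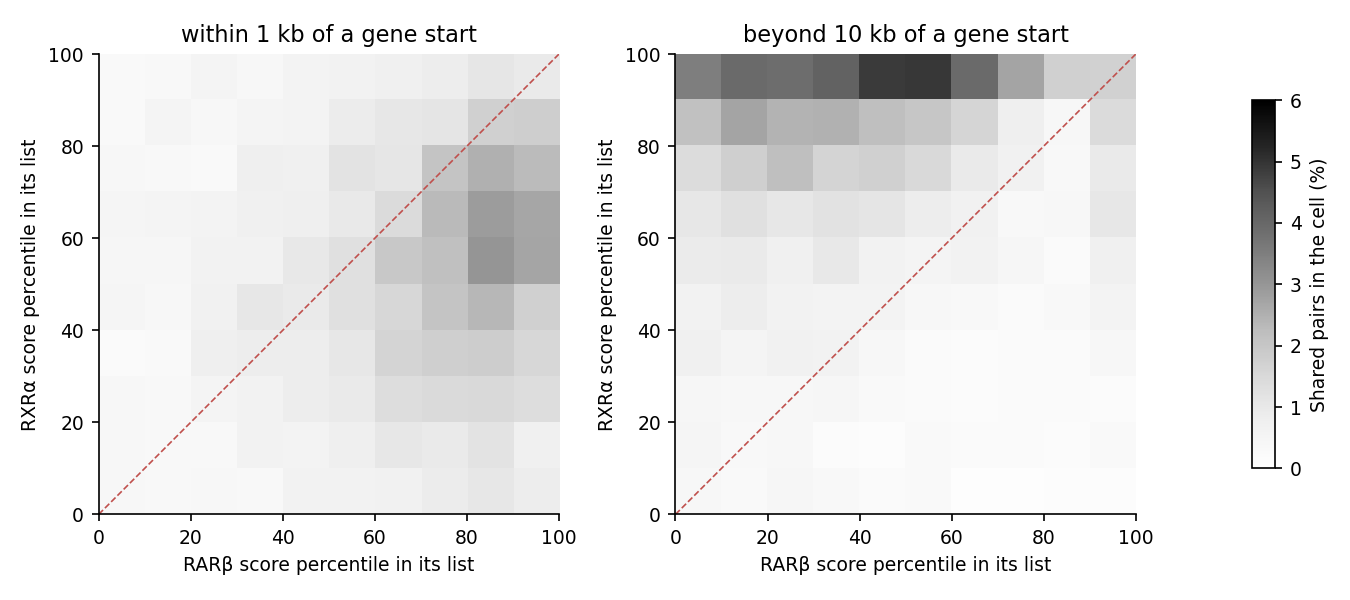
Shared pairs within 1 kb of a start (left, 5425 pairs) and beyond 10 kb (right, 4909 pairs) by the score percentile of the RARβ peak (x axis) and of the RXRα peak (y axis), each in its own list; grey gives the share of the pairs in a cell (%) and the dashed line marks equal percentiles. The promoter pairs lie mostly below the line and the distal pairs mostly above it, with median percentiles of 70.9 and 53.5 against 39.9 and 82.7.

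Cutting the RXRα list to the length of the RARβ list changed the picture. The share of RARβ peaks on an RXRα peak became 32.4% (31.6% to 33.1%), and the share of RXRα peaks on a RARβ peak 31.7% (31.0% to 32.5%). Among the RARβ peaks that then counted as specific, 7162 (70.7%) did lie on an RXRα peak, but one with a score below the cut. The highest peaks of both lists were largely different regions: of the 5000 highest of each list 11.3% overlapped, and of the 1000 highest 4.3%. Against the full partner list, 89.4% of the 1000 highest RARβ peaks and 55.0% of the 1000 highest RXRα peaks were shared.

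At equal length the shared part of the RARβ list depended on location. Of the RARβ peaks within 1 kb of a start 16.9% (16% to 17.9%) overlapped one of the highest 14968 RXRα peaks, against 35.4% at 1 to 10 kb and 47.1% (45.9% to 48.4%) beyond 10 kb. With the full lists this order had been the reverse, with differences of only a few percentage points. The RARβ-specific class then had 52.7% of its peaks within 1 kb of a start, the shared class 22.4% and the RXRα-specific class 4.37%. Of the 1499 RXRα peaks that the cut left within 1 kb of a start, 70.2% (67.8% to 72.4%) lay on a RARβ peak. This share was 28.2% at 1 to 10 kb and 27.3% beyond 10 kb.

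The highest-scoring RARβ-specific peaks were also present in the RARβ library of the RA diet. The highest, with a score of 1275, lay at -5.93 kb from the start of Srbd1, which encodes a protein with an RNA-binding domain (negative offsets are upstream of the start). It had a score of 2226 in the RARβ RA list, 63.8 in the RARα RA list and no peak in either RXRα list. The next were at Rfx1 (910.5), at Prmt1 (849, at -211 bp), at Abhd2, which encodes a lipid hydrolase (830, at -163 bp), and within Prodh2, which encodes a dehydrogenase of hydroxyproline breakdown (792). The Rfx1 peak lay 3391 bp after the outermost start of the gene and covered the window printed above, which belongs to another start. The peaks at Rfx1 and Prmt1 had low scores of 106 and 99.6 in the RXRα RA list, and those at Abhd2 and Prodh2 had none there. All 5 had a RARβ peak under RA, from 143 at Prodh2 to 2226 at Srbd1.

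The highest-scoring RXRα-specific peaks were mostly distal and recurred in the RXRα library of the RA diet. They lay at -4.71 kb from Pan3, which encodes a subunit of a deadenylase (3108), within Abcb4, the canalicular phospholipid transporter, 35.1 kb from its start (2308), within Adgrl3, an adhesion receptor (2046), at -24.5 kb from Nol4l (1962) and at -8.17 kb from Mapk13, a stress kinase (1737). Under RA their scores in the RXRα list were 2814, 2413, 2089, 1522 and 2007. All 5 also had a RARβ peak under RA, with scores from 101 to 544. No RARβ peak was called there under the control diet. The genes with the highest RXRα-specific peaks within 1 kb of the start, which were chosen after their values were seen, were Abcb11 (1640 at -147 bp), Akr1b7 (1582 at -277 bp), Slc51b, a subunit of the basolateral bile acid transporter (1095 at -356 bp), Uroc1, an enzyme of histidine breakdown (1094 at -421 bp), and Gsta4, a glutathione transferase (1057 at -47 bp). The Slc51b peak had a score of 899 in the RXRα RA list and no peak in the 3 RAR lists of the other libraries, while the other 4 had RAR peaks from 90.5 to 322.

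The highest-scoring shared RARβ peaks lay far from gene starts and were high in every list. Below the 6 RARβ peaks that tied at 3100, the highest shared RARβ peaks were at Galc (3067), Samd9l (2599), Chl1 (2395), Asmt (2134) and Fam172a (2044), from 85.7 kb to 1198 kb away from the nearest start. Their RXRα scores were from 1214 to 2966, and they scored over 1000 in the other 4 lists as well. Of the 40 RARβ peaks with a score of at least 1000, 16 had such a score in all 6 lists, and all 16 lay beyond 10 kb from a start. Their scores thus do not tell the receptors or diets apart, and whether these regions reflect receptor binding was not tested. Leaving these regions out changed the equal-length share to 32.3% and left the shares of the full lists at 80.2% and 19.7%. The highest shared RARβ peaks within 1 kb of a start, chosen after their values were seen, were at Atp5b (1076, with 326 in the RXRα list), the predicted gene Gm32584 (986 and 497), Osbp, an oxysterol-binding protein (982 and 248), G3bp1, a stress granule protein (914 and 82.2), and Khsrp, an RNA-binding protein (891 and 175). The highest shared RXRα peak was within Fcna, a ficolin of innate immunity (3164), 6536 bp from its start, where the RARβ score was 472. Further shared RXRα peaks at Palb2 (2914) and Prr16 (2900) had RARβ scores of 203 and 57.4.

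The other 4 lists, from RARα under both diets and from RARβ and RXRα under RA, were not used to form the classes. Of the shared RARβ peaks, 82.1% had a peak in the RARα control list, 86.8% in the RARβ RA list and 94.6% in the RXRα RA list, and 69.7% (68.9% to 70.5%) were present in all 4. Of the RARβ-specific peaks, 53.4% (51.6% to 55.2%) were in the RARα control list, 41.2% (39.4% to 43.0%) in the RARβ RA list and 30.1% (28.5% to 31.8%) in the RXRα RA list, while 35.5% were in none. Of the RXRα-specific peaks, 75.4% (75.1% to 75.8%) were in the RXRα RA list, 26.2% in the RARα control list and 32.6% in the RARβ RA list, and 19.1% were in none. Shared peaks thus recurred most often. The specific classes were formed by the absence of a peak in 1 control list, which bears on their share in the RA list of the same receptor, so the lists were not ranked as partners. These shares also depend on the lengths of the other lists.

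The recurrence of RARβ-specific peaks depended on their score and location. With a score of at least 100, 83.9% (80.6% to 86.7%) were in the RARα control list, 84.9% (81.8% to 87.6%) in the RARβ RA list and 53.4% (49.3% to 57.5%) in the RXRα RA list, and 6.13% were in none. Of those within 1 kb of a start, the same lists held 84.9%, 75.8% and 51.0%, with 4.87% in none. Beyond 10 kb, they were 28.9%, 13.9% and 13.7%, and 60.8% (58.1% to 63.3%) of 1371 peaks were in none. The distal RARβ-specific peaks were thus mainly seen in 1 library, and the promoter peaks in several. Of the peaks with a score of at least 100, 194 of 571 (34.0%) recurred with RARβ under RA and were without an RXRα peak under both diets. Of the RXRα-specific peaks, 31.1% were in the RXRα RA list and in none of the 3 RAR lists.

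Promoter sequence differed between the classes in base composition. Of 21263 RefSeq windows of 300 bases around starts of 17492 protein-coding genes, 5871 (27.6%) lay under a shared peak, 1133 (5.33%) under a RARβ-specific peak, 2161 (10.2%) under an RXRα-specific peak and 12093 under none. Starts of the same gene can share a peak, so the windows are not independent. Windows were called CpG-rich with at least 50% GC and an observed to expected CpG ratio of at least 0.6, which 45.1% of all windows met. This share was 80.5% under shared peaks, 82.1% under RARβ-specific peaks, 50.4% under RXRα-specific peaks and 23.6% under none. At equal length it was 71.9%, 82.9% and 25.9%, so the promoters of the highest RXRα-specific peaks were mostly poor in CpG.

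The hexamer of the nuclear receptors was more frequent under RXRα-specific peaks than under RARβ-specific peaks. AGGTCA was found on either strand in 14.7% of all windows, 12.3% of those under shared peaks, 8.30% under RARβ-specific peaks, 18.4% under RXRα-specific peaks and 15.8% under none. At equal length the shares were 18.4%, 10.3% and 29.9%. Within CpG-rich windows alone, AGGTCA was found in 9.31% of all, and in 10.6% (9.76% to 11.5%) under shared, 6.99% (5.52% to 8.81%) under RARβ-specific, 11.1% (9.38% to 13.1%) under RXRα-specific peaks and 7.25% under none. The share under RARβ-specific peaks was thus near that of CpG-rich windows without a peak. Any of the 4 hexamers, a set that includes AGGTCA, was found in 41.2% of all windows, and in 38.0%, 27.9%, 48.6% and 42.6% of the 4 groups. Direct repeats of these 4 hexamers with 1 base between, the arrangement used by PPARα with RXRα, were rare, with 0.183% of all windows. They were in 16 windows (0.273%) under shared, 1 (0.0883%) under RARβ-specific, 8 (0.370%) under RXRα-specific peaks and 14 (0.116%) under none. With 5 bases between, the classic arrangement of RAR with RXR, they were found in 0.0800% of all windows. They were in 1 window (0.0170%) under shared, 2 (0.0925%) under RXRα-specific peaks and 0 of the 1133 under RARβ-specific peaks. Windows without a peak held 14 (0.116%). These counts are too small to compare the classes. The windows cover promoters only, and distal peaks were not searched. The boxes of CpG-rich promoters went the other way. The GC box GGGCGG was in 46.2% of all windows and in 69.9%, 73.8% and 53.3% of the shared, RARβ-specific and RXRα-specific ones, and CCGGAAG, a site of ETS factors, in 11.6% against 23.5%, 22.2% and 13.5%. TATAAA was in 12.6% of all windows, and in 5.43%, 5.65%, 8.38% and 17.5% of the shared, RARβ-specific, RXRα-specific and unbound ones. Within CpG-rich windows alone, GGGCGG and TATAAA were at similar shares in these 4 groups. GGGCGG was in 76.6%, 79.2%, 76.7% and 76.3% there, and TATAAA in 4.21%, 5.48%, 3.67% and 5.05%. CCGGAAG was in 25.5%, 22.8%, 20.5% and 9.99%.

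The score of the peak over a promoter went with the CCAAT box for RARβ and with AGGTCA for RXRα. In the lowest decile of the windows with a RARβ peak by score, 36.9% (33.4% to 40.6%) held a CCAAT box, and in the highest decile 65.4% (61.7% to 68.8%), against 38.2% of all windows. At least 2 boxes were found in 14.2% of the lowest and 44.9% (41.2% to 48.6%) of the highest decile, against 12.8% of all windows. Along the RXRα list the share with at least 2 boxes was 15.8% in the lowest and 15.9% (13.5% to 18.6%) in the highest decile. AGGTCA moved in the opposite way: from 10% (8.10% to 12.3%) in the lowest to 25% (22.1% to 28.2%) in the highest decile for RXRα, and from 13.0% to 8.04% (6.23% to 10.3%) for RARβ. The ranking by score was added after the class values were seen.

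The same contrast was present in the libraries of the RA diet, which the ranking above did not use. In the RARβ RA list the share of windows with at least 2 CCAAT boxes went from 9.96% in the lowest to 47.2% in the highest decile, and in the RXRα RA list from 17.2% to 15.2%. AGGTCA went from 10.6% to 22.1% along the RXRα RA list and from 11.7% to 8.55% along the RARβ RA list. In the highest decile RARα lay between, with at least 2 CCAAT boxes in 22.8% of windows on the control diet and 18.3% on the RA diet. In the lowest decile the RARα shares were 13.0% and 13.9%, the first of which was below both other receptors. AGGTCA went from 13.4% to 10.6% along the RARα control list and from 11.8% to 9.22% along the RARα RA list. Within CpG-rich windows alone, the share with at least 2 boxes went from 12.6% to 43.0% along the RARβ control list and from 15.9% to 16.3% along the RXRα control list. AGGTCA in these windows went from 8.23% to 15.2% along the RXRα control list and from 9.37% (7.22% to 12.1%) to 8.27% (6.26% to 10.9%) along the RARβ control list, where the intervals overlapped. With 1 window per gene, the share with at least 2 CCAAT boxes went from 14.2% to 46.1% for RARβ. A match of letters is a description of the window, and no factor other than the receptors was measured.

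**Figure D4:**
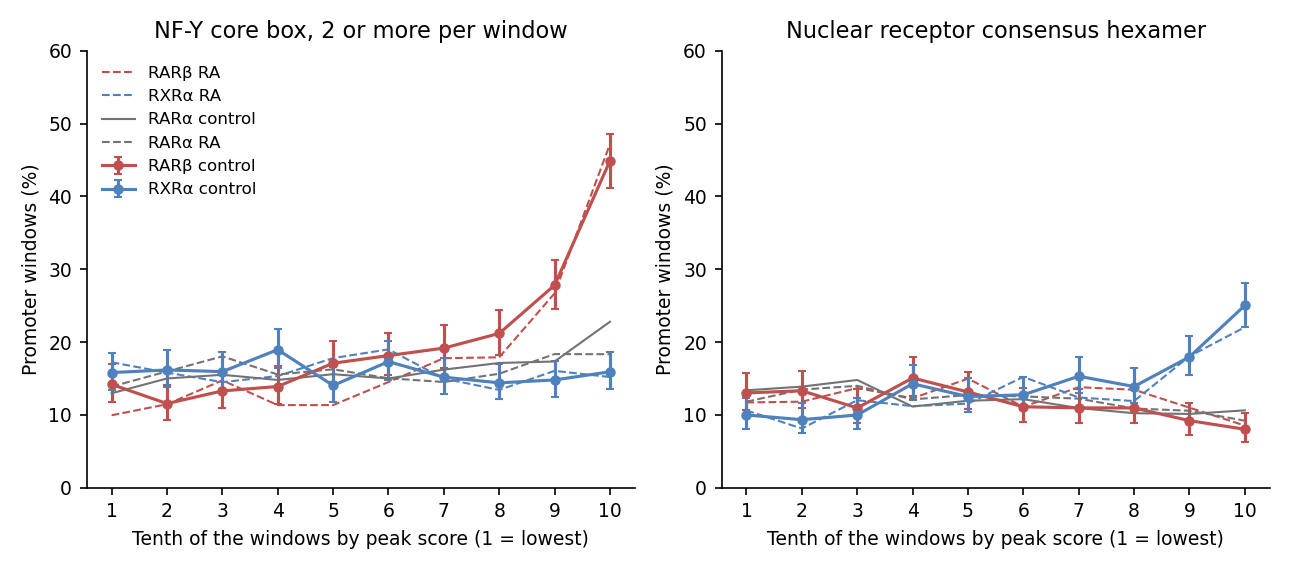
The share of promoter windows (%) with at least 2 CCAAT boxes (left) or with the hexamer AGGTCA (right), in deciles of the windows under a peak by its score (1 is the lowest), for each library; points with Wilson 95% intervals are the control libraries of RARβ (red) and RXRα (blue), dashed lines their RA libraries and grey lines RARα. The left share goes from 14.2% to 44.9% for RARβ control and from 15.8% to 15.9% for RXRα control, and the right share from 13.0% to 8.04% and from 10% to 25%.

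Genes were assigned by a peak midpoint within 10 kb of the outermost start, for 21536 protein-coding genes. A RARβ peak was assigned to 9490 genes, which is 44.1% of them, and an RXRα peak to 13208 (61.3%). A shared peak was assigned to 8101 genes (37.6%), a RARβ-specific peak to 2012 (9.34%) and an RXRα-specific peak to 9719 (45.1%). Genes with RARβ-specific peaks alone were few, 551, while 4263 had RXRα-specific peaks alone and 845 had separate peaks of each receptor. With the RXRα list cut to equal length, 4429 genes had an RXRα peak (20.6%), 2249 a shared peak (10.4%), 7908 a RARβ-specific peak (36.7%) and 2592 an RXRα-specific peak (12.0%). The same number of peaks thus reached fewer genes for RXRα than for RARβ. The gene lists below are read against these shares of all genes.

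Of 17 genes of retinoid receptors and of receptors that pair with RXR, 13 (76.5%, against 61.3% of all genes) had an RXRα peak and 7 (41.2%, against 44.1%) a RARβ peak. With the RXRα list cut to equal length, 7 had an RXRα peak. The genes of 4 receptors, Rarb, Rarg, Rxrg and the vitamin D receptor Vdr, had neither within 10 kb. Rara and Rxra themselves had 5 RXRα-specific peaks each and no RARβ peak, with highest RXRα scores of 154 and 175. Ppara had its highest RXRα peak, RXRα-specific, at -2449 bp (1018, percentile 98.8) and a shared RARβ peak of 61.1 at 301 bp (percentile 28.9). The genes of CAR (Nr1i3) and PXR (Nr1i2) had RXRα-specific peaks of 945.5 and 876, and that of FXR (Nr1h4) one of 370. Nr1h3, which encodes LXRα, had a shared RARβ peak of 132 at 135 bp.

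Among 24 genes of retinoid metabolism and transport, 16 had an RXRα peak, 7 of them at equal length, and 7 a RARβ peak. Cyp26a1, the enzyme that breaks down RA and a classic RAR target, had shared peaks. Its highest RXRα peak at 4869 bp had a score of 1963, percentile 99.96, and its highest RARβ peak at 4907 bp had 102, percentile 69.2. Bco2, a carotenoid oxygenase, had a shared RARβ peak of 96.9 at -34 bp. Adh4, an alcohol dehydrogenase that acts on retinol, and Rdh16, a retinol dehydrogenase, had RXRα-specific peaks of 743 and 548 and no RARβ peak. The shares of this list were thus 29.2% for RARβ, against 44.1% of all genes, 66.7% for RXRα, against 61.3%, and 29.2% for RXRα at equal length, against 20.6%.

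In the lists of hepatocyte metabolism nearly every gene had an RXRα peak. Of 26 PPARα targets, which act mainly in fatty acid oxidation, 26 had an RXRα peak, also with the list cut to equal length, and 19 had a RARβ peak. Of 23 genes of bile acid synthesis and transport, 22 had an RXRα peak, 19 of them at equal length, and 11 a RARβ peak. Of 12 LXR targets 12 and 10, of 31 secreted proteins of hepatocytes 31 and 24, and of 18 hepatocyte transcription factors 18 and 11 had an RXRα and a RARβ peak. At equal length 8, 25 and 9 of these 3 lists had an RXRα peak. Of all genes, 61.3% had an RXRα peak, and 20.6% at equal length. The RARβ shares of the 5 lists, in the order given, were 73.1%, 47.8%, 83.3%, 77.4% and 61.1%, against 44.1% of all genes. The median percentile of the highest RARβ peak was 17.0 for the LXR targets, 35.8 for the secreted proteins, 36.8 for the bile acid genes, 49.7 for the PPARα targets and 52.5 for the transcription factors, against 68.8 for all genes with a RARβ peak. Of the 8938 genes with peaks of both receptors, the highest RARβ percentile was above the highest RXRα percentile in 4722. Among such genes this was so in 0 of 19 PPARα targets, 0 of 11 bile acid genes and 0 of 10 LXR targets. It was so in 0 of 24 secreted protein genes and 1 of 11 transcription factor genes. Here and below, the highest peaks of a gene can be different regions, and the numbers of peaks per receptor were not matched. Acaa1b, for example, had 5 RXRα peaks and 1 RARβ peak.

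Single genes of these lists show the size of this contrast. Cyp4a10, a fatty acid hydroxylase, had a shared region at -4142 bp with an RXRα score of 1210 (percentile 99.5) and a RARβ score of 56.05 (percentile 18.2). At Acaa1b, a thiolase of peroxisomes, the scores were 1073 and 57.05, and at Vnn1, a pantetheinase, 845 and 59.6. Slc10a1, the hepatic bile acid uptake transporter, had a shared region at -7580 bp in the RXRα list with 1595, and at -7431 bp in the RARβ list with 105. Abcb11 and Slc51b had RXRα-specific peaks only. Cyp7a1, the rate-limiting enzyme of bile acid synthesis, had an RXRα-specific peak of 691 at -3024 bp and a shared RARβ peak of 55.7 at -73 bp, and Cyp7b1, another hydroxylase of that pathway, separate peaks of 725 for RXRα and 59.3 for RARβ. Nr0b2, the repressor SHP, had a shared RARβ peak of 186 at -7302 bp, percentile 90.8. Abca1, the cholesterol efflux transporter, had a shared RARβ peak of 87.1 at 62 bp and RXRα scores up to 740. Fga, a fibrinogen chain, had 879 for RXRα and 76.8 for RARβ, and Afp, alpha-fetoprotein, 870 and 52.3.

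In the lists of cholesterol synthesis and of the circadian clock, RARβ peaks were also found at most genes. Of 24 genes of cholesterol synthesis and uptake, 20 had a RARβ peak and 20 a shared peak, 22 an RXRα peak and 7 (29.2%) an RXRα peak at equal length. The highest RARβ percentile was above that of RXRα in 11 of the 20 genes with both. Hmgcs1, which makes the precursor of the pathway, had a shared RARβ peak of 169 at -7 bp (percentile 88.6) and an RXRα-specific peak of 708 at 8191 bp. Cyp51, a demethylase of the pathway, had a shared region with 201 for RARβ (percentile 92.1) and 174 for RXRα (percentile 58.4). Of 21 clock genes, 17 had a RARβ peak and 17 a shared peak, 21 an RXRα peak and 13 (61.9%) an RXRα peak at equal length, and the RARβ percentile was the higher one in 7 of the 17 genes with both. Per2, a repressor of the clock, had a RARβ-specific peak of 215 at -144 bp (percentile 93.1) and a shared RXRα peak of 626 at 3088 bp.

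The genes of basic cell functions had RARβ peaks in 66.1% to 91.0% of each list, against 44.1% of all genes, and RXRα peaks at equal length in 18.8% to 36.7%, against 20.6%. Of 97 cytosolic ribosomal protein genes, 78 had a RARβ peak and 86 an RXRα peak, 21 of them at equal length. Of 78 mitochondrial ribosomal protein genes the counts were 71, 74 and 23, of 49 genes of respiratory complex I 44, 47 and 18, of 40 proteasome subunits 35, 37 and 9, of 48 splicing factors 41, 45 and 9, and of 56 translation initiation factors 37, 49 and 12. Among the genes with both, the RARβ percentile was the higher one in 60 of 76 cytosolic ribosomal protein genes, 40 of 68 mitochondrial ribosomal protein genes and 25 of 42 complex I genes. It was so in 22 of 34 proteasome genes, 31 of 40 splicing factor genes and 23 of 36 initiation factor genes, against 4722 of 8938 of all genes. Rps19 had a shared region with 566 for RARβ at -43 bp (percentile 99.1) and 376 for RXRα (percentile 84.1). Eif2ak3, a kinase of the initiation factor eIF2, had 760 for RARβ at -108 bp (percentile 99.5) and 99.4 for RXRα (percentile 34.9), and Eif4a3, a helicase of the exon junction complex, 505 and 55.1. Srsf7, a splicing factor, had 427 and 116, and Psmb2, a proteasome subunit, 542 and 334. Ndufaf8 had separate peaks, with a RARβ-specific one of 676 at -103 bp. Some of these genes share a promoter region with a neighbour, as Rps28 and Ndufa7 do, whose highest RARβ-specific peak of 293 is the same.

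Olfactory receptor and Hox genes had peaks of both receptors at lower shares than all genes, and markers of other liver cell types had RARβ peaks in 0 or 1 gene of each list. Of 1108 olfactory receptor genes 20 had a RARβ peak and 73 an RXRα peak, and of 39 Hox genes 5 and 17. All 8 hepatocyte markers had an RXRα peak and 4 a RARβ peak. Of 8 markers each, stellate cells had 3 genes with an RXRα peak and 0 with a RARβ peak, Kupffer cells 3 and 1, endothelial cells 5 and 1, and cholangiocytes 4 and 0. The RXRα shares of these 4 lists were thus from 37.5% to 62.5%, against 61.3% of all genes. Among the hepatocyte markers, Ass1 of the urea cycle had a shared region with 941 for RXRα and 63.6 for RARβ, and Alb, albumin, had RXRα-specific peaks up to 536 and no RARβ peak. The highest in the other lists were RXRα-specific peaks at Pdgfrb of stellate cells (569) and Csf1r of Kupffer cells (464), and a shared region at Oit3 of endothelial cells (594, with 65.2 for RARβ). Cd68, a macrophage gene, had a shared RARβ peak of 233 at -6217 bp. A peak near a gene does not show which cell type it came from.

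**Figure D5:**
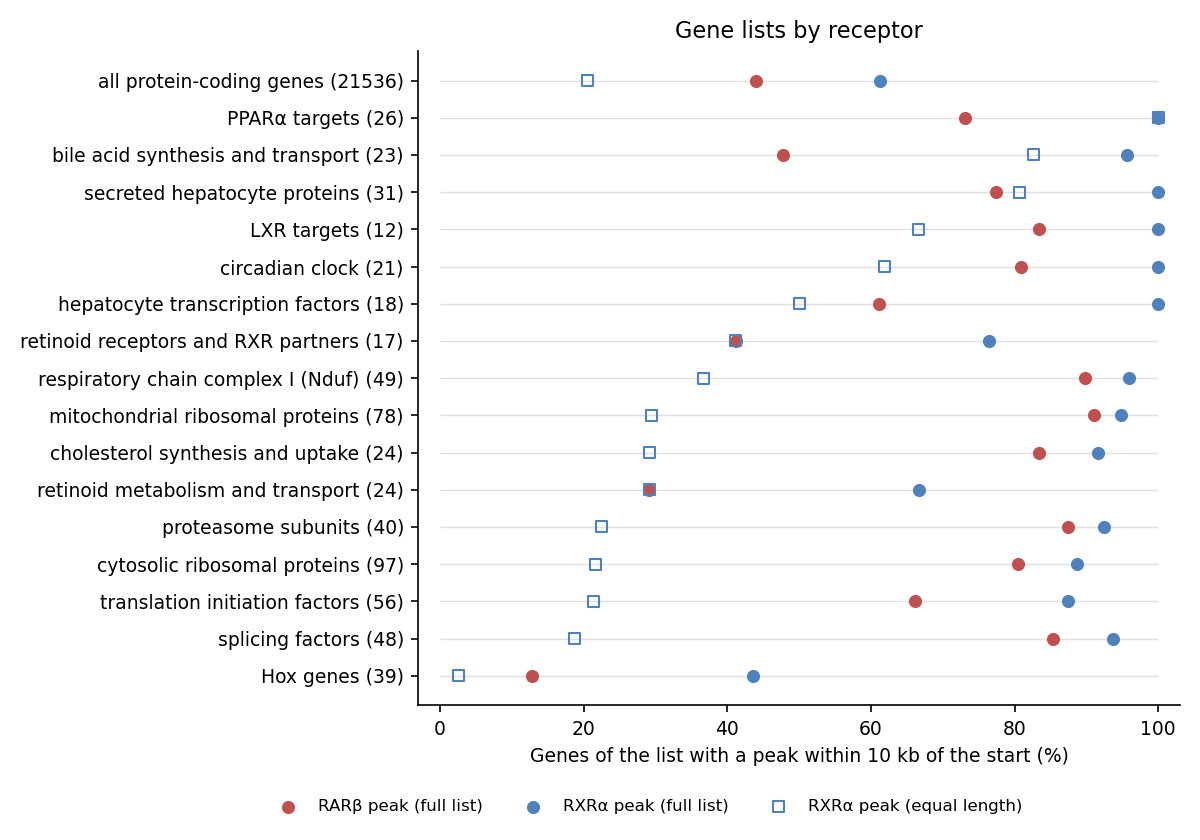
For each gene list (number of genes in parentheses), the share of genes (%) with a peak midpoint within 10 kb of the start, for the RARβ list (red), the full RXRα list (blue circles) and the RXRα list cut to equal length (blue squares), with all 21536 protein-coding genes on top. All genes stand at 44.1%, 61.3% and 20.6%; the PPARα targets stand at 73.1%, 100% and 100%, and the splicing factors at 85.4%, 93.8% and 18.8%.

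The other genes named by the study or well known as targets fell in several classes. Abhd5, an activator of triglyceride breakdown, had a shared RARβ peak of 112 at 100 bp. Elovl1, an elongase of fatty acids, had a shared region with 127 for RARβ at 1249 bp and 166 for RXRα. Ptdss1, which makes phosphatidylserine, had a shared region with 89.95 and 142, and Cbr1, a carbonyl reductase, had shared RARβ peaks up to 209 and RXRα peaks up to 303. Aldh3a2, a fatty aldehyde dehydrogenase, had 1 shared RARβ peak, a RARβ-specific peak of 62.4 at 215 bp, its highest, and RXRα peaks up to 490. Apoa4, an apolipoprotein, had a RARβ-specific peak of 53.8 at -9918 bp beside RXRα-specific peaks up to 272. Both RARβ-specific values were in the lower part of the list, at percentiles of 31.3 and 12.5.

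When each peak was given to its nearest start at any distance, the RARβ-specific peaks reached 2692 genes, the shared peaks 8470 and the RXRα-specific peaks 12885. Of the genes nearest to a RARβ-specific peak, 42.4% were also nearest to a shared peak, which is 13.5% of the genes of the shared class. Of the genes nearest to a shared peak, 75% were also nearest to an RXRα-specific peak, which is 49.3% of the genes of that class. These overlaps are to be read against all 21536 genes. Of these, 2692 were nearest to a RARβ-specific, 8470 to a shared and 12885 to an RXRα-specific peak. Classes of this size share many genes, and no excess over that was tested. The genes with the most peaks were chosen after their values were seen. They were Adgrl2 (61), Tbl1xr1 (55), Myc (52) and Pik3r1 (50) for RXRα-specific peaks and Dio3 (10), Lpp (9), Rufy4 (9) and Myc (8) for shared peaks, while no gene had more than 4 RARβ-specific peaks. Genes in long stretches without other genes collect more peaks under this assignment.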

How the data were processed

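Single-end reads of 35 bp from 6 ChIP libraries and 1 input library of mouse liver were sequenced. The input was not used here on its own. Per the labels and the study's methods, base calls came from CASAVA 1.4, reads were aligned to mm10 with Bowtie and peaks were called with MACS. The score of each peak was deposited by the authors as the caller's value, with no normalization between libraries and no score under 50. The study's own limits on signal over input were not applied. Depth was not analysed here, and precision is given by the number of peaks.

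Peaks were compared within the RARβ and RXRα control lists as deposited, using the labels for grouping, with Python 3.11.15, pandas 2.3.3 and scipy 1.17.1; the overlap and distance steps were tested on simulated data and against bedtools 2.31.1. Ties in the equal-length cut were taken by position. Gene starts came from RefSeq on GRCm38.p6 for 21536 of 21887 protein-coding genes with a known strand, taken from the RefSeq promoter table for 17492 genes and otherwise by symbol from GENCODE M1. Both sources gave the same strand for 99.69% of 18258 genes. Windows of chromosome 18 were not in the promoter table used here. Peak sequences outside promoters were not analysed here, because no genome of the files' build was used.

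The lists compared and the gene lists were chosen with earlier results of these data known. Named were the 5 highest-scoring peaks of each class below the tied top score, up to 4 genes per list by their highest peak with members without peaks where few, the receptor genes and 12 further genes, named by the study or classic targets. The gene Tf of the secreted proteins had no start. Alternatives concerned the overlap, peak width, score, list length, chromosomes, gene kind and distance; leaving out regions high in all 6 lists, the starts of the promoter table and the motif shares within CpG-rich windows were chosen after seeing the data.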

Additional observations from a re-analysis of the deposited data

How the results depend on the processing

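No paired analysis was possible because there was 1 library per receptor. Of 43 alternative values, 11 stayed within the counting interval of the main value or within 1.5 times a count, and 32 moved; the cause was not tested. The share of RARβ peaks on an RXRα peak became 77.8% with an overlap of 25% of each width, 65.1% with peaks resized to 200 bp and 71.1% with scores of at least 100 in both lists, and the RXRα share became 19%, 15.9% and 8.65%. At equal length the RARβ share became 31.0% and 24.7% under the first 2 settings, 11.3% for the 5000 and 4.3% for the 1000 highest peaks. The shares within 1 kb of a start (RARβ-specific, shared, RXRα-specific) became 73.2%, 64.4% and 9.30% with scores of at least 100, 52.7%, 22.4% and 4.37% at equal length, 40.3%, 47.0% and 8.8% with genes of all kinds, 53.7%, 59.4% and 27.3% with a limit of 10 kb, and 35.3%, 41.0% and 5.95% with the starts of the promoter table; the last class had 6.77% with 25% overlap. RXRα-specific peaks had the lowest share in each of these settings, while the order of the other classes turned with scores of at least 100 and at equal length. Genes in these classes numbered 7908, 2249 and 2592 at equal length, 3393 in the shared class with scores of at least 100, and 1261 and 3170 in the specific classes with a limit of 1 kb. With 1 library each, none of these values separates receptor, antibody and depth.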
